A study of Sus scrofa with 30 samples.

Results

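Junction genes encode the proteins that hold epithelial cells together and seal the space between them, and their mRNA was followed in single pig embryos from the spherical blastocyst to the elongated conceptus. Members were all genes in the count table of all embryos whose pig gene symbol belongs to the claudins, cadherins, protocadherins, desmogleins, desmocollins, plakophilins, connexins of the A, B and C groups, zonula occludens proteins or nectins, together with OCLN, DSP, JUP, F11R, CGN, EPCAM, PARD3 and CRB3. The rule used names only and no measured value. The authors had dropped genes of low CPM, so entry to the count table itself depended on level. Of 100 symbols in the pig gene table that fitted it, 50 were among the 13103 genes of the count table and the other 50 were not analysed here. The 50 members were 9 claudins, 8 other tight junction and polarity genes, 9 cadherins, 3 protocadherins, 5 genes grouped as nectins and EPCAM, 11 desmosome genes and 5 connexins.

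RNA-seq counts were available for 30 whole embryos, 5 female and 5 male on each of Days 8, 10 and 12 after insemination. All came from German Landrace × Pietrain gilts whose cycles had been synchronised with Altrenogest, PMSG and human chorionic gonadotropin, and all had 1 Pietrain boar as sire. Each embryo was flushed from the uterus, frozen singly and kept whole, so embryonic disc, trophectoderm and hypoblast were sequenced together. The gilt of each embryo was not given, and as there were fewer gilts than embryos on each day some embryos shared a litter, so the p-values measure the spread between these embryos. Counts per embryo ranged from 6068212 to 34002508. Levels are CPM, that is counts scaled to library size with TMM factors, and 3 counts corresponded to 0.0823 to 0.434 CPM depending on the embryo. Embryos carry the names of the labels, with day, sex and number, as in d12_f_245 for a female of Day 12.

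Tight junctions seal the apical border of an epithelium through claudins and occludin, which the zonula occludens proteins and cingulin tie to actin. Adherens junctions join neighbouring cells through cadherins and nectins. Desmosomes anchor keratin filaments to the cell border, with desmogleins and desmocollins across the membrane and plakoglobin, plakophilins and desmoplakin beneath it, and connexins form the channels of gap junctions. In the mammalian blastocyst the trophectoderm is the first epithelium that carries all of these junctions, and its tight junctions retain the fluid of the cavity.

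Markers of the 3 early lineages were present. All 9 trophectoderm markers were in the table, with summed levels of 20687 to 25317 CPM on Day 8, 32886 to 50177 CPM on Day 10 and 9350 to 27889 CPM on Day 12, most of it from the keratins KRT8 and KRT18. From Day 10 to Day 12, 4 of the 9 fell (KRT8, KRT18, CDX2 and TEAD4) and 3 rose (TFAP2A, GATA3 and HAND1). HAND1 was also listed as a marker of early mesoderm, and its Day 8 mean was only 0.0624 CPM. The other early mesoderm markers in the table, T, EOMES and LHX1, were called lower on Day 12 than Day 10. The 6 hypoblast markers summed to 309 to 494 CPM on Day 10 and 618 to 3235 CPM on Day 12, and 4 of them (PDGFRA, GATA4, APOE and HNF4A) were called higher on Day 12. Among the 6 epiblast markers POU5F1, NANOG, NODAL and SOX2 were called lower on Day 12 and ETV4 higher, whereas the summed level of all 6 had a median of 117 CPM on Day 10 and 404 CPM on Day 12, mostly from DPPA5, whose change after Day 10 did not pass the test. Of 5 markers of the endometrium, 4 were in the table and summed to at most 40.8 CPM in any embryo, and the 2 of 8 blood and immune cell markers in the table summed to at most 14.3 CPM. These sums also changed between days, not all in the same direction, and their part in the results was not tested. In whole embryos, fewer cells of a type and less RNA per cell cannot be told apart.

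Embryos of 1 day were compared with those of the day before it, both sexes together. A gene was called at a log2 fold change beyond 1 in either direction with an FDR under 0.001 (edgeR's quasi-likelihood test over all 13103 genes), and each log2 fold change is given ± SE. From Day 8 to Day 10, 5 of the 50 members rose (CLDN3, TJP3, NECTIN4, DSC1 and DSG3), against 9.88% of all genes, and 3 fell (CDH22, CDH3 and DSC3), against 4.2% of all genes. The median log2 fold change was 0.25 over the members and 0.03 over all genes. From Day 10 to Day 12, 14 members rose, against 14.9% of all genes, and 9 fell, against 8.39% of all genes, with a median of 0.08 over the members and 0.04 over all genes. As shares of the members these were 28% and 18%. Of the 14, CLDN23 and CDH6 were in the separate count table of Day 12 but not in those of Days 8 and 10. Of the 9, DSC1 and DSG3 were in the count tables of Days 8 and 10 but not in that of Day 12. Among the rises of the first interval, CLDN3 was not in the count table of Day 8 and NECTIN4 was only in that of Day 12. Entry of these genes to the table of all embryos may have rested on the days when they were high. All 8 genes called in the first interval and all 23 called in the second moved the same way in both sexes. The calls were made on both sexes together, so equal signs are not a separate test. Sizes could differ, as for CLDN1 after Day 10, with changes in mean log2 CPM of 0.31 in females and 2.34 in males. The 2 intervals share the Day 10 embryos.

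**Figure D1:**
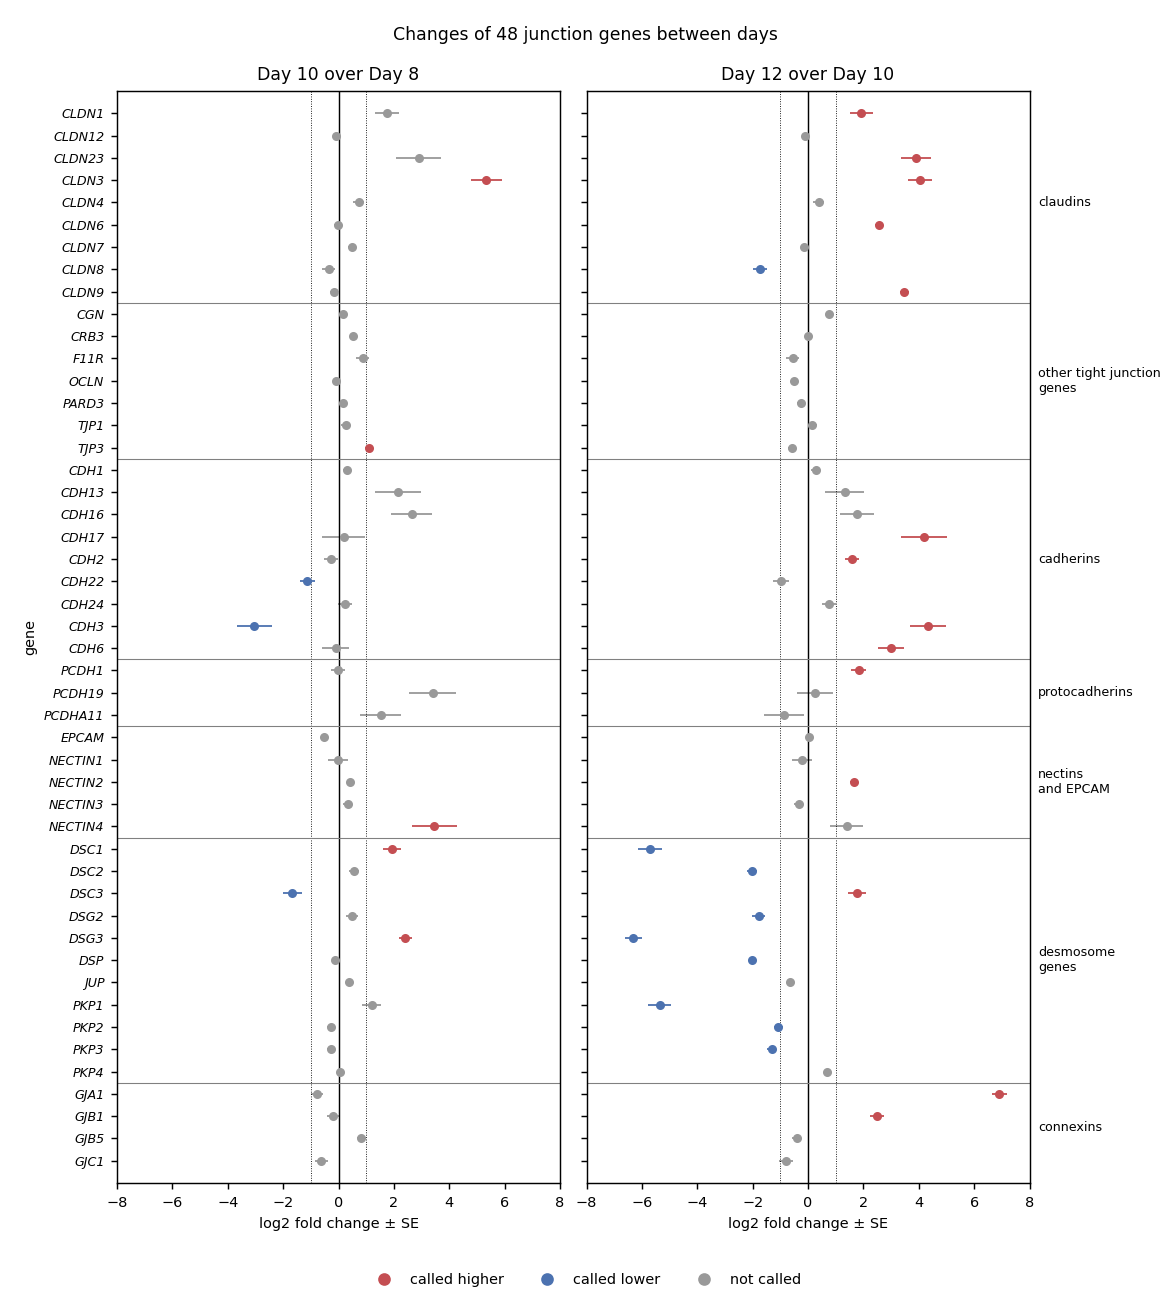
Log2 fold change ± SE of 48 of the 50 members from Day 8 to Day 10 (left) and from Day 10 to Day 12 (right), grouped by junction type, with red for genes called higher, blue for genes called lower and grey for genes not called; dotted lines mark a log2 fold change of 1 in each direction. The left panel holds 8 coloured points and the right panel 23, and 8 of the 9 blue points on the right are desmosome genes.

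Over the 2 intervals 24 of the 50 members were called in neither. Of these, CLDN4, CDH13, CDH16 and PCDH19 were called higher and GJC1 lower when Day 12 was compared with Day 8. The share of all genes called in that comparison is not given here. Of the count tables of single days, CDH13 and CDH16 were only in that of Day 12, and PCDH19 was in none. The rises of CDH13 and CDH16 may therefore have been built into their entry. CLDN3 alone was called higher in both, DSC1 and DSG3 rose and then fell, and CDH3 and DSC3 fell and then rose. A further 11 members changed only by a rise after Day 10 and 7 only by a fall after Day 10, as far as calls go. The same counts over all genes are not given here, so these counts only describe the members. The Day 8 and Day 10 embryos did not overlap for 9 members, against 22% of all genes, and the Day 10 and Day 12 embryos for 15 members, against 16.6% of all genes. All 15 of the latter were called.

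**Figure D2:**
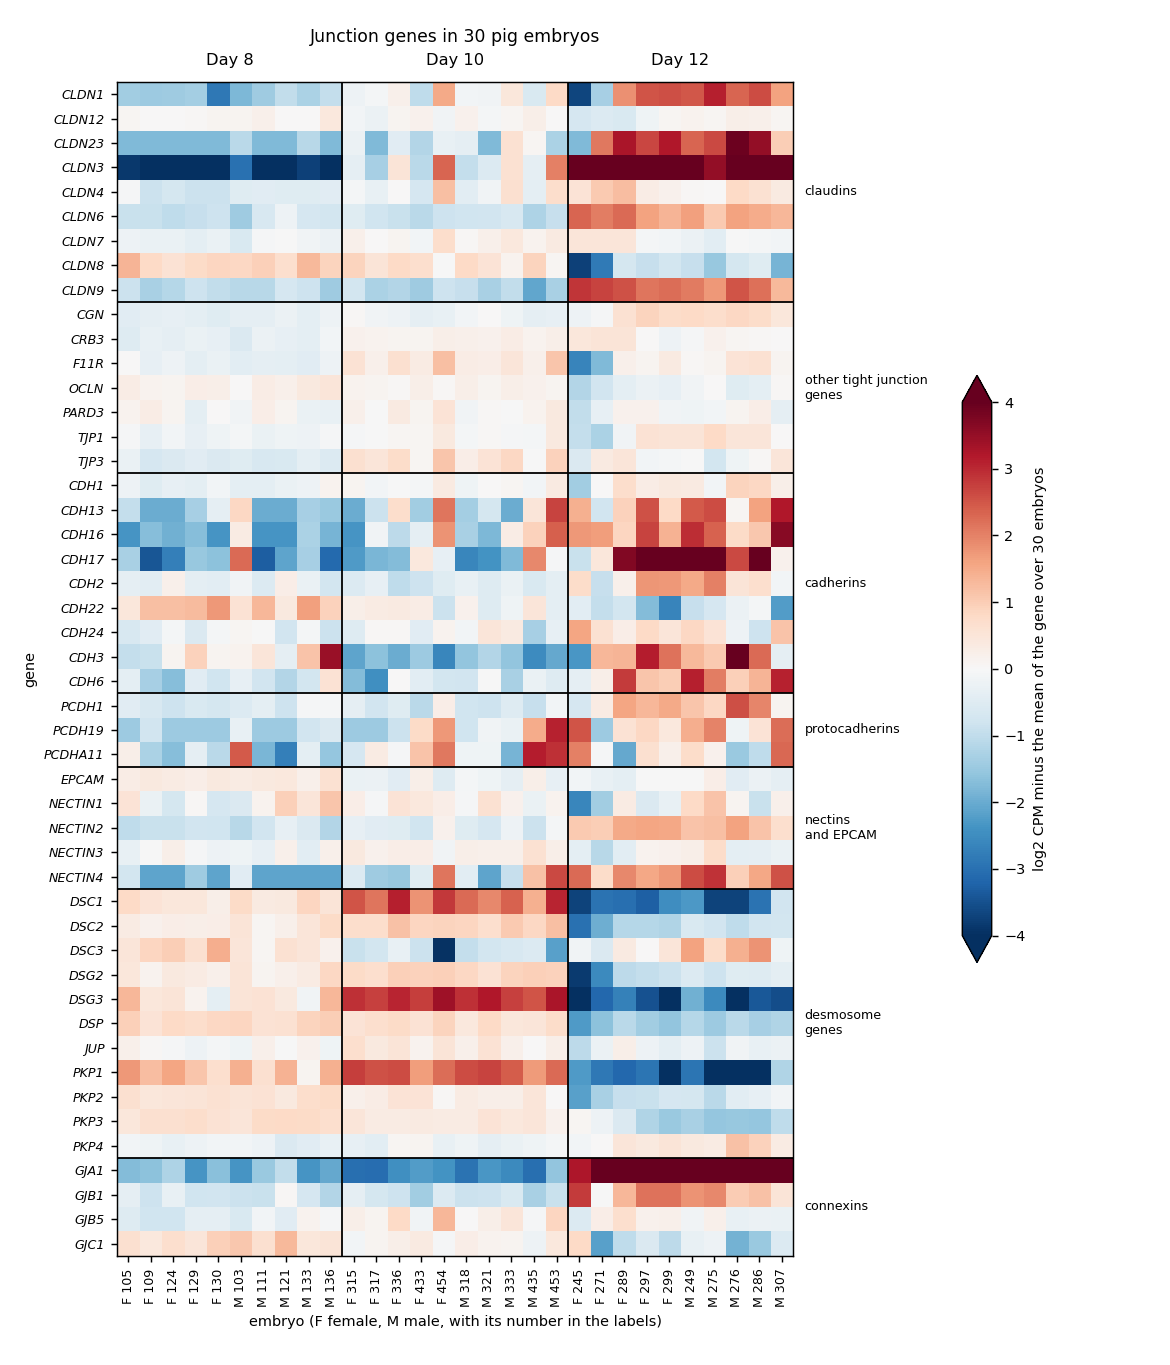
Log2 CPM of 48 of the 50 members, each minus its mean over all 30 embryos, with 1 column per embryo (F female, M male) and junction types separated by lines; the colour scale ends at 4 log2 units in each direction. Most desmosome genes are red on Days 8 and 10 and blue on Day 12, and GJA1, CLDN6 and CLDN9 show the opposite.

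The desmosome genes were the junction type with the most members that fell. From Day 10 to Day 12, 8 of 11 fell and 1 rose, against 8.39% and 14.9% of all genes. The median log2 fold change was -1.79 against 0.04 over all genes. The plaque gene DSP encodes desmoplakin, which binds keratin filaments (gene 100156744, chr7:4862649-4915626 on Sscrofa11.1). Its level was 1060.0 to 1425 CPM (median 1261) on Day 8, 973 to 1347 CPM (median 1114) on Day 10 and 148 to 342 CPM (median 281) on Day 12. Every Day 12 embryo was below every Day 10 embryo, and DSP fell by 2.02 ± 0.11 on the log2 scale (FDR = 4.88e-16), while the first interval gave -0.14 ± 0.11 (FDR = 0.262). Plakoglobin (JUP), which sits in desmosomes and in adherens junctions, had means of 378 ± 41.7, 488 ± 74.8 and 308 ± 72.1 CPM on Days 8, 10 and 12 (SD, n = 10 embryos in each day, as for all means below). Its log2 fold change after Day 10 was -0.66 ± 0.11 (FDR = 9.47e-06), which is inside the limit of 1, so JUP was not called.

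Plakophilins link desmosomal cadherins to desmoplakin, and PKP1, PKP2 and PKP3 all fell after Day 10. PKP1 (gene 100623590, chr10:23689394-23735457) was at 61.4 to 191 CPM (median 142) on Day 8, 182 to 386 CPM (median 322) on Day 10 and 0.82 to 24.9 CPM (median 6.86) on Day 12. The Day 12 embryos lay far below those of Day 10 without overlap, and PKP1 fell by 5.36 ± 0.41 on the log2 scale (FDR = 1.45e-12). Between Days 8 and 10 PKP1 had a log2 fold change of 1.20 ± 0.34 (FDR = 0.00399) and was not called, although it passed with the robust GLM (FDR = 6.61e-06), in the fit of Days 8 and 10 alone (FDR = 7.81e-06) and when d12_m_307 was left out (FDR = 0.000658). PKP2 averaged 649.8 ± 53.5, 541 ± 69.8 and 257 ± 89.2 CPM on the 3 days and fell by 1.07 ± 0.15 on the log2 scale after Day 10 (FDR = 2.78e-07). Its log2 fold change was close to the limit and was -0.98 on the log2 scale without d12_f_245, which ended the call. PKP3 averaged 177 ± 14.6, 147 ± 11 and 59.7 ± 28 CPM and fell by 1.31 ± 0.16 (FDR = 2.79e-08). PKP4, which is related to the catenins of adherens junctions, went from 68.9 ± 9.01 to 109.9 ± 30.3 CPM and was not called (log2 fold change 0.67 ± 0.12, FDR = 8.29e-06).

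**Figure D3:**
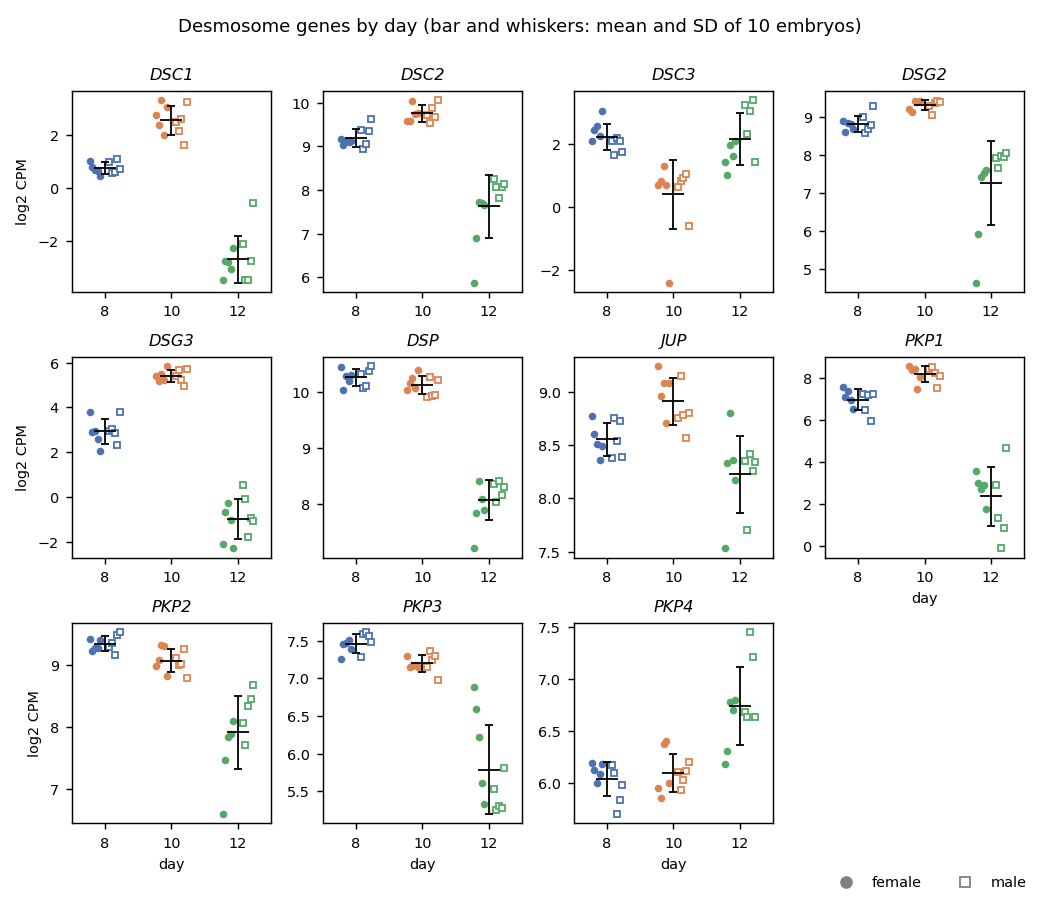
Log2 CPM of the 11 desmosome genes in each embryo on Days 8, 10 and 12, with filled circles for females, open squares for males and bars with whiskers for the mean and SD of 10 embryos; each panel has its own scale. In 8 panels all Day 12 embryos lie below all Day 10 embryos, while DSC3 is lowest on Day 10 and PKP4 is highest on Day 12.

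The desmosomal cadherins did not all move together. DSC2 and DSG2 are the pair found in simple epithelia. DSC2 was at 489 to 785 CPM (median 554) on Day 8, 742 to 1067 CPM (median 845) on Day 10 and 58.9 to 304 CPM (median 219) on Day 12. DSG2 was at 384 to 625.3 CPM (median 445), 533 to 689.7 CPM (median 667) and 25 to 267 CPM (median 198) on the same days. For both genes the Day 12 embryos were below all Day 10 embryos, and on the log2 scale DSC2 fell by 2.01 ± 0.18 (FDR = 3.01e-11) and DSG2 fell by 1.79 ± 0.24 (FDR = 1.06e-07). Embryo d12_f_245 was the lowest for each of them.

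DSG3 and DSC1, desmosomal cadherins of stratified epithelia such as skin, peaked on Day 10. DSG3 was at 4.13 to 13.8 CPM (median 7.58) on Day 8, 31.3 to 57.7 CPM (median 41.8) on Day 10 and 0.118 to 1.38 CPM (median 0.419) on Day 12. The 3 days did not overlap, and DSG3 rose by 2.42 ± 0.24 (FDR = 7.92e-10) and then fell by 6.31 ± 0.30 on the log2 scale (FDR = 1.69e-17). DSC1 was at 1.27 to 2.01 CPM (median 1.52) on Day 8, 2.97 to 9.79 CPM (median 5.64) on Day 10 and 0 to 0.58 CPM (median 0.056) on Day 12. It rose by 1.93 ± 0.34 (FDR = 1.73e-05) and fell by 5.71 ± 0.44 on the log2 scale (FDR = 1.23e-12), again without overlap. On Day 12 only 1 of 10 embryos had more than 3 counts of DSC1, so the size of its fall rests on few counts. Neither DSG3 nor DSC1 was in the count table of Day 12, so their falls may have been partly built into their entry.

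DSC3 took the opposite course. It was at 3.04 to 8.14 CPM (median 4.3) on Day 8, 0.103 to 2.36 CPM (median 1.62) on Day 10 and 1.92 to 10.3 CPM (median 3.94) on Day 12. Day 10 was the low point. DSC3 fell by 1.67 ± 0.33 on the log2 scale (FDR = 9.87e-05) without overlap of Days 8 and 10 and then rose by 1.77 ± 0.33 (FDR = 3.29e-05), with the embryos of Days 10 and 12 overlapping. Embryos d10_f_454 and d10_m_453 had the lowest levels, 0.103 and 0.578 CPM.

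The 5 desmosomal cadherin genes analysed here lie on chromosome 6 within 537 kb (chr6:114916759-115453763, Sscrofa11.1), in the order DSC3, DSC2, DSC1, DSG3 and DSG2. A stretch of 275907 bp separates DSC1 from DSG3, and the genes in it are not given here. DSC3, at one end, and DSC2 beside it are 18570 bp apart. In both intervals DSC3 had the sign opposite to that of the other 4 genes, with -1.67 ± 0.33 against 0.56 ± 0.17 for DSC2 in the first and 1.77 ± 0.33 against -2.01 ± 0.18 in the second. DSG3 and DSG2 are 16472 bp apart and differed in size, with log2 fold changes of -6.31 ± 0.30 and -1.79 ± 0.24 after Day 10.

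**Figure D4:**
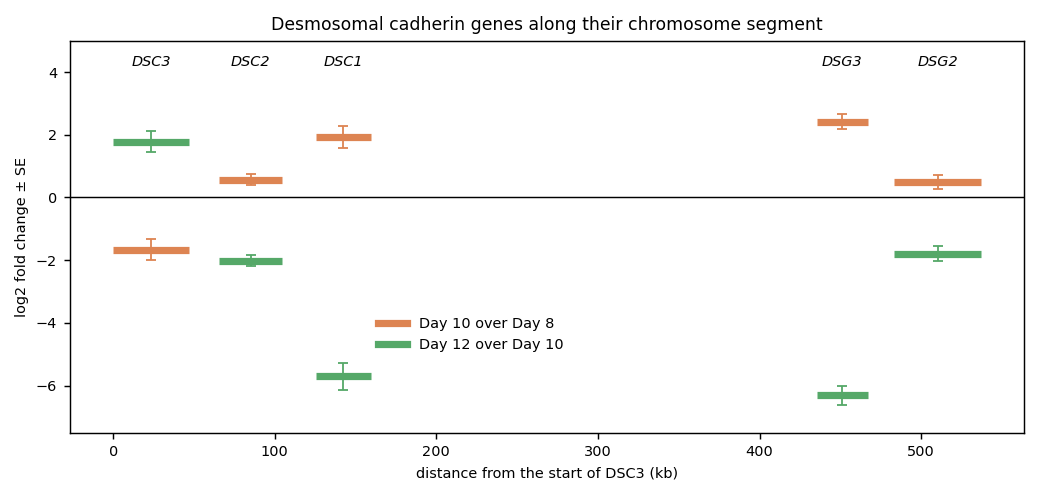
Log2 fold change ± SE of the 5 desmosomal cadherin genes analysed here, drawn at their distance in kb from the start of DSC3, from Day 8 to Day 10 (orange) and from Day 10 to Day 12 (green). DSC3 is below 0 in orange and above 0 in green, and DSC2, DSC1, DSG3 and DSG2 show the reverse.

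Among the claudins, the strands of the tight junction, 5 of 9 rose and 1 fell from Day 10 to Day 12. Of all genes 14.9% rose and 8.39% fell. The median log2 fold change was 1.92 over the claudins and 0.04 over all genes. CLDN6 and CLDN9 are neighbours on chromosome 3, 99 bp apart (chr3:39168506-39172631 and chr3:39172731-39181827). CLDN6 (gene 100302020), a claudin of embryonic epithelia, was at 81.3 to 188 CPM (median 120.8) on Day 8, 93.4 to 157 CPM (median 125) on Day 10 and 452 to 1099 CPM (median 671) on Day 12. CLDN9 (gene 100302022) was at 5.16 to 8.73 CPM (median 6.74), 3.24 to 8.37 CPM (median 5.99) and 34.6 to 102 CPM (median 65.3) on the 3 days. Neither was called between Days 8 and 10, and both rose in every Day 12 embryo above all Day 10 embryos, by 2.56 ± 0.15 for CLDN6 (FDR = 2.17e-15) and 3.47 ± 0.17 for CLDN9 on the log2 scale (FDR = 4.01e-17).

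CLDN3, a barrier claudin, rose in both intervals (gene 431781, chr3:11019073-11020102). Its level was 0.0309 to 0.768 CPM (median 0.139) on Day 8, 2.57 to 33.5 CPM (median 5.13) on Day 10 and 76.8 to 280.3 CPM (median 143) on Day 12. The 3 days did not overlap, with rises of 5.34 ± 0.55 (FDR = 2.24e-09) and 4.04 ± 0.43 on the log2 scale (FDR = 1.5e-09), and on Day 8 only 4 of 10 embryos had more than 3 counts. CLDN3 was in the count tables of Days 10 and 12 but not in that of Day 8, so its first rise may have been built into its entry. Embryos d10_f_454 and d10_m_453 had the highest levels of Day 10, 33.5 and 26.9 CPM. CLDN4 lies 19608 bp from CLDN3 and averaged 289.9 ± 53.8, 479 ± 223 and 627 ± 191 CPM on the 3 days. It was called in neither interval, with log2 fold changes of 0.72 ± 0.20 (FDR = 0.00236) and 0.39 ± 0.19 (FDR = 0.0849). Day 12 against Day 8 gave 1.11 ± 0.20 for CLDN4 (FDR = 8.93e-06, edgeR), a call without overlap of these embryos.

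CLDN8 was the claudin that fell. It was at 83.8 to 146 CPM (median 101) on Day 8, 55.7 to 106 CPM (median 86.4) on Day 10 and 4.2 to 40.6 CPM (median 30) on Day 12. All Day 12 embryos were below those of Day 10 and CLDN8 fell by 1.72 ± 0.25 on the log2 scale (FDR = 4.68e-07), with d12_f_245 and d12_f_271 at 4.2 and 7.9 CPM and the other Day 12 embryos at 15.4 CPM or more. CLDN23 rose by 3.91 ± 0.54 on the log2 scale after Day 10 (FDR = 2.4e-07), to 0 to 4.47 CPM (median 1.81). As it was in the count table of Day 12 and not in those of Days 8 and 10, its rise may have been built into its entry. More than 3 counts of CLDN23 were found in 0 of 10 Day 8, 2 of 10 Day 10 and 9 of 10 Day 12 embryos, and the exception among the last was d12_f_245. CLDN1 rose by 1.92 ± 0.42 (FDR = 0.000233), from 3.44 ± 2.01 to 13 ± 7.93 CPM. This call was lost in the fit of Days 10 and 12 alone and with a minimum log2 fold change of 1 inside the test. Its Day 12 embryos ran from 0.145 CPM in d12_f_245 to 25.6 CPM in d12_m_275 and overlapped those of Day 10. CLDN7 averaged 224 ± 25.9, 309.9 ± 53.7 and 277 ± 65.3 CPM and CLDN12 33.2 ± 3.05, 31.4 ± 3.51 and 29.1 ± 6.58 CPM, and neither was called in an interval.

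**Figure D5:**
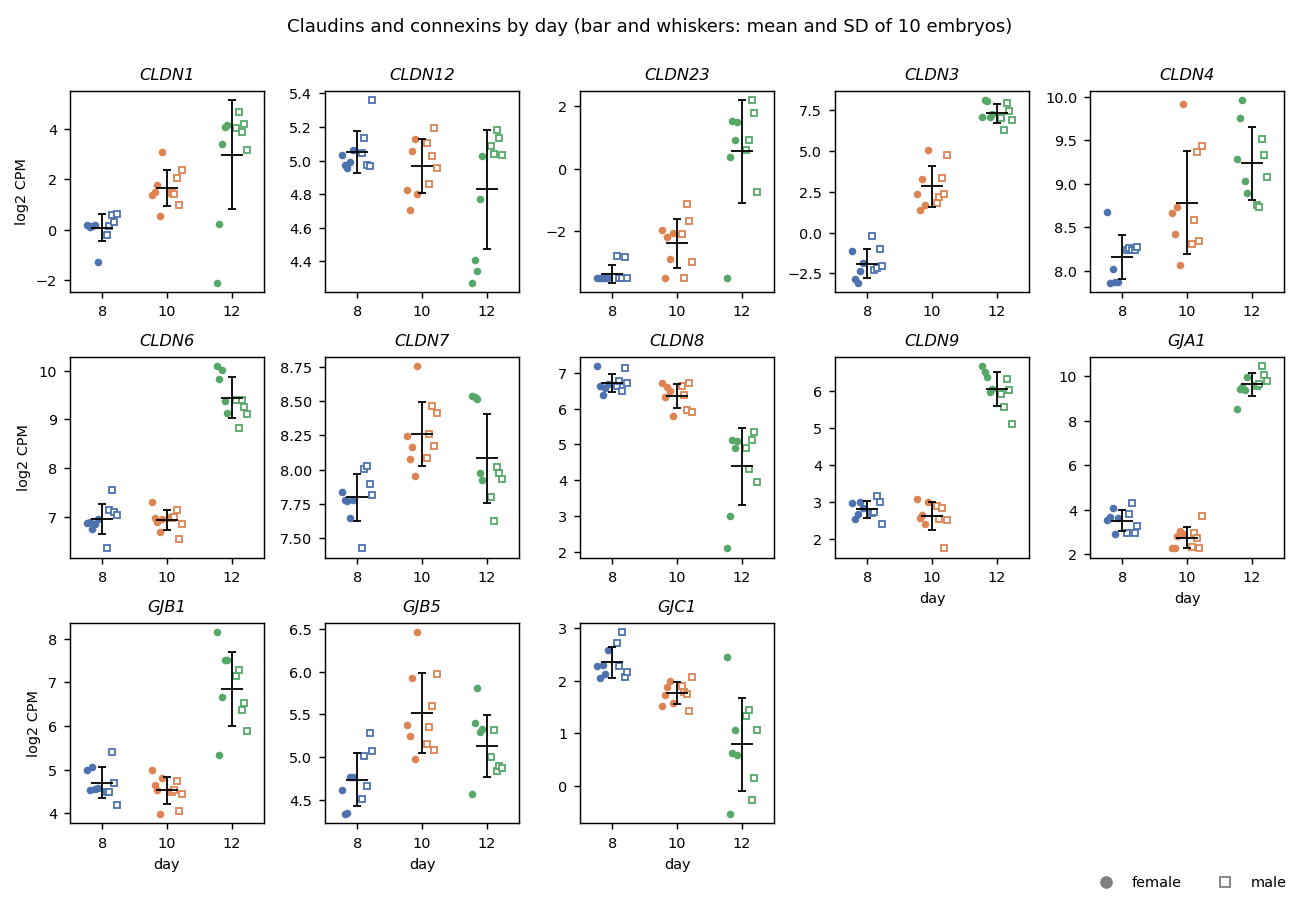
Log2 CPM of the 9 claudins and 4 of the 5 connexins in each embryo on Days 8, 10 and 12, with filled circles for females, open squares for males and bars with whiskers for the mean and SD of 10 embryos; each panel has its own scale. CLDN3, CLDN6, CLDN9, GJA1 and GJB1 lie higher in all Day 12 than in all Day 10 embryos and CLDN8 lower.

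Of the 8 other tight junction and polarity genes, 1 was called from Day 8 to Day 10 and 0 from Day 10 to Day 12 by edgeR's test. Of all genes 9.88% rose and 4.2% fell in the first interval, and 14.9% rose and 8.39% fell in the second. TJP3, a zonula occludens protein, rose from Day 8 to Day 10 (gene 100626455, chr2:74938153-74971431). It was at 33.7 to 44.7 CPM (median 36.1) on Day 8, 52.6 to 116 CPM (median 80.1) on Day 10 and 32 to 74.7 CPM (median 51.7) on Day 12. The Day 8 and Day 10 embryos did not overlap and the rise was 1.11 ± 0.14 on the log2 scale (FDR = 9.64e-08), close to the limit, and it was 0.99 without d10_f_454, d10_m_453 and d12_f_245, which ended the call. TJP3 overlaps APBA3, a gene that is also in the table, and the strand setting of the counting is not given in the sources used here. Its relative TJP1 had a log2 fold change of 0.15 ± 0.17 (FDR = 0.466) after Day 10.

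Occludin (OCLN), a transmembrane protein of the tight junction, averaged 273 ± 26.3, 253 ± 12.7 and 180.0 ± 41.6 CPM, and its log2 fold change after Day 10 was -0.49 ± 0.10 (FDR = 0.000107). Cingulin (CGN) averaged 289.9 ± 18.2, 326 ± 33.7 and 556 ± 123.9 CPM, with 0.77 ± 0.10 after Day 10 (FDR = 1.4e-07). Both values passed the FDR limit and stayed inside the fold limit. The junctional adhesion molecule F11R had no overlap between Days 8 and 10, at 53.1 to 72.5 CPM (median 56.7) and 83.2 to 167 CPM (median 94.9), and a log2 fold change of 0.87 ± 0.24 (FDR = 0.00248). For the apical polarity gene CRB3, whose means were 117 ± 10.8, 167 ± 7.02 and 166 ± 30.3 CPM, Days 8 and 10 did not overlap either (0.51 ± 0.081, FDR = 3.95e-06). PARD3, a scaffold of the polarity complex, averaged 28.7 ± 4.7, 32.5 ± 5.11 and 26.9 ± 6.04 CPM.

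Of the 9 cadherins 4 rose from Day 10 to Day 12 and 0 fell, against 14.9% and 8.39% of all genes. The median log2 fold change was 1.58, against 0.04 over all genes. For each of the 4 some embryos of Days 10 and 12 overlapped. E-cadherin (CDH1), the main cadherin of epithelia, was at 369.7 to 578 CPM (median 423) on Day 8, 463 to 675 CPM (median 521) on Day 10 and 200.4 to 957 CPM (median 659) on Day 12. The ranges overlapped and CDH1 was not called, with log2 fold changes of 0.31 ± 0.16 (FDR = 0.105) and 0.28 ± 0.16 (FDR = 0.132). N-cadherin (CDH2), typical of mesenchymal and neural cells, was at 32 to 63.1 CPM (median 40.9), 25.9 to 44 CPM (median 37.3) and 27.8 to 215 CPM (median 85.7). CDH2 rose by 1.58 ± 0.25 on the log2 scale after Day 10 (FDR = 1.89e-06), but the lowest Day 12 embryo, d12_f_271 at 27.8 CPM, lay within the Day 10 range. Embryo d12_m_275 was the highest at 215 CPM.

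P-cadherin (CDH3), 34984 bp from CDH1 on chromosome 6, had its low point on Day 10. It was at 1.64 to 36.9 CPM (median 3.56) on Day 8, 0.463 to 1.39 CPM (median 0.87) on Day 10 and 0.579 to 80.2 CPM (median 8.42) on Day 12. CDH3 fell by 3.03 ± 0.64 without overlap (FDR = 0.000172) and rose by 4.33 ± 0.66 with overlap (FDR = 1.36e-06). Embryo d08_m_136 had the 36.9 CPM, the next embryo of that day had 7.22 CPM, and without d08_m_136 the log2 fold change was -2.13 with an FDR of 0.00113, which ended the call. CDH17, a cadherin of liver and intestine, rose by 4.18 ± 0.83 after Day 10 (FDR = 6.97e-05), from 0.245 to 7.62 CPM (median 0.526) to 1.01 to 73.2 CPM (median 31.7). CDH6 rose by 3.0 ± 0.47 (FDR = 2.29e-06) to 0.289 to 4.13 CPM (median 1.06). Like CLDN23 it was, of the tables of single days, only in that of Day 12. CDH22, with means of 4.42 ± 1.42 CPM on Day 8 and 2.03 ± 0.589 CPM on Day 10, fell by 1.12 ± 0.27 (FDR = 0.000771). It lost its call when any 1 of 12 embryos was left out (d08_f_109, d08_f_124, d08_f_129, d08_f_130, d08_m_111, d08_m_133, d10_f_315, d10_f_454, d10_m_318, d10_m_321, d10_m_333 and d10_m_453), with log2 fold changes of -1.14 to -1.04 and FDR of 0.00112 to 0.00212. CDH13, CDH16 and CDH24 had Day 12 means of 1.25 ± 0.983, 2.06 ± 1.58 and 1.87 ± 0.848 CPM and were called in neither interval.

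Of the 3 protocadherins PCDH1 rose after Day 10. It was at 47.3 to 81.7 CPM (median 56.3), 39.5 to 101 CPM (median 54.6) and 53.4 to 502 CPM (median 197) on the 3 days, and the rise was 1.83 ± 0.26 on the log2 scale (FDR = 4.56e-07) with overlap of Days 10 and 12. PCDH19 and PCDHA11 were at 1.95 and 5.16 CPM at most in any embryo and were called in neither interval. PCDHA11 shares its position with other genes of the alpha protocadherin cluster, and its counts cannot be told apart from theirs with certainty.

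Nectins are adhesion molecules that act beside cadherins. NECTIN2 (gene 100038012, chr6:51317386-51358665) was at 56.7 to 102.6 CPM (median 71.4) on Day 8, 70.8 to 145 CPM (median 92.9) on Day 10 and 205 to 394 CPM (median 288) on Day 12. All Day 12 embryos were above all Day 10 embryos, with a rise of 1.66 ± 0.13 on the log2 scale (FDR = 3.66e-12). NECTIN4 was called higher from Day 8 to Day 10 (3.47 ± 0.80, FDR = 0.000502), but more than 3 counts were found in 1 of 10 embryos on Day 8 and 5 on Day 10. Of the count tables of single days it was only in that of Day 12. The call was lost without any 1 of 9 embryos (d08_f_109, d08_f_124, d08_f_130, d08_m_111, d08_m_121, d08_m_133, d08_m_136, d10_f_454 and d10_m_453), with log2 fold changes of 2.79 to 3.37 and FDR of 0.00102 to 0.00295, and the largest Day 10 values were those of d10_m_453 (2.31 CPM) and d10_f_454 (1.59 CPM). NECTIN1 averaged 0.555 ± 0.296, 0.548 ± 0.121 and 0.454 ± 0.339 CPM and NECTIN3 26.5 ± 4.41, 33.2 ± 4.45 and 26.1 ± 9.32 CPM, and neither was called. EPCAM, an epithelial adhesion molecule, averaged 311 ± 24.6, 214 ± 40.7 and 217 ± 34.8 CPM. Its log2 fold change from Day 8 to Day 10 was -0.54 ± 0.10 (FDR = 2.2e-05), inside the fold limit, and that from Day 10 to Day 12 was 0.02 ± 0.10 (FDR = 0.856).

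Of the 5 connexins 2 rose from Day 10 to Day 12, against 14.9% of all genes, and none was called before. GJA1, the most widely found connexin in mammalian tissues (gene 100518636, chr1:40988818-41002129), had the largest log2 fold change of the 50 members in that interval. It was at 7.5 to 19.7 CPM (median 11.9) on Day 8, 4.69 to 13.2 CPM (median 6.79) on Day 10 and 371 to 1410.0 CPM (median 782) on Day 12. The lowest Day 12 embryo, d12_f_245, was far above the highest Day 10 embryo, d10_m_453, and the rise was 6.91 ± 0.26 on the log2 scale (FDR = 7.27e-20). GJB1, the main connexin of liver, lies on the X chromosome (chrX:57241990-57249496) and was at 18.1 to 42.4 CPM (median 23.7), 15.7 to 31.9 CPM (median 23) and 40.1 to 286.2 CPM (median 122). GJB1 rose by 2.5 ± 0.25 (FDR = 2.93e-10) without overlap of Days 10 and 12. On Day 12 its difference between females and males was not called (female over male 0.61 ± 0.45, FDR = 0.403).

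GJB5, a connexin known from skin and trophoblast, averaged 27.2 ± 6.11, 48.1 ± 17.7 and 36.1 ± 9.39 CPM, and its first change, 0.82 ± 0.17 (FDR = 0.000158), was inside the fold limit. GJC1 went from 5.11 ± 1.15 through 3.32 ± 0.484 to 1.96 ± 1.37 CPM and was called in neither interval. It was at 5.35 CPM in d12_f_245 and at 2.6 CPM or less in the other Day 12 embryos.

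Genes outside the rule that act in the same junctions, such as catenins, polarity and tight junction scaffolds, were described as a list of 43 symbols, 33 of which were in the table. From Day 8 to Day 10, 4 rose and 1 fell, against 9.88% and 4.2% of all genes, with a median log2 fold change of 0.16. From Day 10 to Day 12, 7 rose (MPDZ, AMOT, AMOTL1, PARD6G, CGNL1, PANX1 and PARD3B) and 3 fell (MAGI3, PERP and AFDN), with a median of 0.12. The shares of all genes were 14.9% that rose and 8.39% that fell. PERP, a membrane protein of desmosomes, fell by 1.92 ± 0.12 on the log2 scale (FDR = 7.83e-15), from 307.5 to 524 CPM (median 414) to 66.6 to 133.4 CPM (median 118). Among the desmosome-associated plakins, EVPL rose by 1.21 ± 0.23 from Day 8 to Day 10 (FDR = 4.43e-05, edgeR). After Day 10 EVPL and PPL had 0.25 ± 0.22 and -0.62 ± 0.16 and were not called. AFDN, the partner of nectins, fell by 1.01 ± 0.067 (FDR = 4.76e-14). The catenins CTNNA1, CTNNB1 and CTNND1, which join cadherins to actin or bind their tails, had 0.12 ± 0.10, 0.63 ± 0.13 and -0.37 ± 0.13 and were not called.

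Females and males were compared on each day in the table of that day, with a call at an FDR under 0.05. On Day 8, 0 of 40 members were called, against 0.658% of all genes. On Day 10 the count was 0 of 43, against 0.223%, and on Day 12 it was 0 of 45, against 0.123%. The robust GLM and DESeq2 also called 0 members on each day. At an unadjusted p under 0.05 there were 3 members on Day 8 (CDH3, DSC3 and GJB5), or 7.5% of those tested against 4.59% of all genes, 0 on Day 10 against 2.36% of all genes, and 10 on Day 12, or 22.2% against 22.7% of all genes. These included CLDN6, CLDN7, CLDN9 and PKP3, which were higher in females, and CLDN12, DSC2, DSC3 and PKP2, which were higher in males. PKP3 was at 75.7 ± 32.6 CPM in females and 43.7 ± 7.71 CPM in males (SD, n = 5 each), with FDR = 0.198 in edgeR's test, and d12_f_245, d12_f_271 and d12_f_289 had the 3 highest levels. For the change from day to day, 0 of 50 members were called as different by sex in either interval, against 0% and 0% of all genes. At an unadjusted p under 0.05 the interaction counts were 0 members in the first interval, against 0.763% of all genes, and 10 in the second, or 20% against 18.9% of all genes.

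By the median SD of log2 CPM the spread between embryos was largest on Day 12. Over the 42 members with a mean of at least 1 CPM, the median SD of log2 CPM was 0.236 on Day 8, 0.25 on Day 10 and 0.584 on Day 12, while over the 11845 genes of that level it was 0.208, 0.266 and 0.426. d12_f_245, the smallest library, was the lowest of its day for 24 of the 50 members and the highest for 8, and d12_f_271 was the lowest for 9. Among Day 10 embryos d10_f_454 was the highest for 16 members and d10_m_453 for 8, and these were the embryos with the lowest TMM factors (0.832 and 0.852). Without d12_f_245, d10_f_454 and d10_m_453, 3 members rose and 2 fell from Day 8 to Day 10, and 17 rose and 10 fell from Day 10 to Day 12. CLDN3, DSC1 and DSG3 were still called higher in the first interval, and all 23 members called in the second were called again. Without d12_f_245 and d12_f_271, 14 members rose and 8 fell in the second interval, PKP2 being the call that was lost. The shares of all genes called in these fits are not given here.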

How the data were processed

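RNA of 30 single whole pig embryos, 5 female and 5 male on each of Days 8, 10 and 12, was sequenced from stranded mRNA libraries as single-end reads. The tables deposited by the authors hold raw counts of reads, 1 row per NCBI gene ID and 1 column per embryo. Before counting, the authors clipped reads with Trim Galore, cut 3 bases off the 5′ end and aligned to Sscrofa11.1 on a Galaxy server, and they dropped genes of low CPM. Which aligner, counter, strand setting and CPM limit were used is not given in the sources used here.

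All 13103 gene IDs matched the NCBI gene table of the same assembly, which gave symbols and positions. Genes that carry only a LOC name were not assigned to a family. CPM used TMM factors, and log2 CPM a prior count of 2. Differences were tested by quasi-likelihood in edgeR (glmQLFit, robust) with Benjamini-Hochberg adjustment over all genes. Day comparisons used 1 fit with 3 day groups (FDR under 0.001, log2 fold change beyond 1). Sexes were compared in the table of each day (FDR under 0.05), and sex by day interactions in a fit of 6 groups. SE values were taken as the log2 fold change, without sign, divided by the root of the F statistic. An embryo with 3 counts or fewer was taken as at the floor. That floor covers counting error only. The calling was tested on simulated data. Software was edgeR 4.0.16, limma 3.58.1 and DESeq2 1.42.0 under R 4.3.3, and pandas 2.3.3, numpy 2.4.6 and matplotlib 3.10.9 under Python 3.11.15.

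The members and the other gene lists were chosen with earlier results of these data known. Members given one by one are, per junction type and interval, up to 3 called genes with the largest rise and 3 with the largest fall, the 2 with the highest mean CPM of their type (ranked by CPM without transcript lengths, which were not at hand, a ranking used for this choice and not as a result), and core components. That took 38 of 50 members. A further 10 (CDH13, CDH16, CDH24, CLDN1, CLDN12, GJC1, NECTIN1, NECTIN3, PCDH19 and PKP4) were named after their values were seen, and 2 members enter the counts but are not reported here one by one. Alternatives were DESeq2, edgeR's robust GLM, scaling by library size alone or RLE factors, a minimum of 10 counts in 5 embryos, a term for sex, a fit of only the 2 days compared, a minimum log2 fold change of 1 inside the test, each embryo left out, and 2 sets of embryos left out that were chosen after the data were seen. Genes of the rule outside the table, networks and reads were not analysed here.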

Additional observations from a re-analysis of the deposited data

Results flagged for a closer look

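Single embryos far from the other 9 of their day were sought in log2 CPM for the 38 members given one by one, that is in 114 groups of 10 embryos. In 12 groups the gap to the nearest embryo exceeded 0.466 of the whole range, and chance alone gives about 1 such group in 20. In 4 of the 12 the embryo was d12_f_245, the smallest library, which had the lowest level each time. It was at 148 CPM for DSP, where the others were at 231 to 342 CPM, at 200.4 CPM for CDH1 (others 485 to 957), at 14.5 CPM for PARD3 (others 22.6 to 34.3) and at 0 CPM for CLDN23 (others 0.503 to 4.47).

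Among Day 8 embryos d08_m_136 had the highest CDH3, 36.9 CPM against 1.64 to 7.22 CPM in the others, and the highest EPCAM, 369 CPM against 277 to 322 CPM. Embryo d08_f_105 had the highest CLDN4, 411 CPM against 233 to 309 CPM, and the highest F11R, 72.5 CPM against 53.1 to 62.6 CPM. In d08_m_103 the CDH17 level was 9.71 CPM, and in the other 9 embryos it was 0.104 to 0.751 CPM. On Day 10 CLDN9 was lowest in d10_m_435, at 3.24 CPM against 5.18 to 8.37 CPM, and DSC3 in d10_f_454, at 0.103 CPM against 0.578 to 2.36 CPM. On Day 12 DSC1 was highest in d12_m_307, at 0.58 CPM against 0 to 0.143 CPM.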

How the results depend on the processing

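Of 30 called values of the 38 members given one by one, 17 stayed called under all 40 alternatives, 13 lost the call under at least 1, and none changed direction. Counts of members that rose and fell from Day 8 to Day 10 were 5 and 3 and from Day 10 to Day 12 were 14 and 9. The robust GLM gave 10 and 3, then 17 and 9, and DESeq2 9 and 3, then 14 and 9. With a minimum log2 fold change of 1 inside the test they were 2 and 0, then 10 and 5. Without d10_f_454, d10_m_453 and d12_f_245 the counts were 3 and 2, then 17 and 10. Leaving out 1 embryo at a time gave 4 to 7 and 2 to 3, then 14 to 14 and 9 to 9, and 0 to 1 members different between sexes on Day 8 (1 without d08_f_105). The shares of all genes called under these alternatives are not given here, and the cause of these differences was not tested. CLDN1, CLDN23, CDH16 and PCDH19 were among the further rises by the robust GLM and DESeq2, and on Day 8 more than 3 counts were found in 10 of 10 embryos for CLDN1 and in at most 1 of 10 for the other 3. Library size alone moved the median of all genes by -0.18 in the first interval and 0.2 in the second. It ended the calls of TJP3 (0.92) and PKP2 (-0.89), and it turned the sign of values that were not called: CGN (-0.012) and PARD3 (-0.0072) in the first interval and CLDN7 (0.045) and CRB3 (0.19) in the second. CDH6 turned to 0.034 in the first interval under the robust GLM and EPCAM to -0.037 in the second without the 3 embryos. With 1 embryo left out, log2 fold changes in the first interval ran from -0.57 to 2.04 for CDH17, -0.24 to 0.20 for CDH6, -0.087 to 0.051 for CLDN6 and -0.13 to 0.041 for PCDH1, and in the second from -0.049 to 0.032 for CRB3 and -0.033 to 0.075 for EPCAM. CDH2, CLDN8, DSG2, PCDH1, PKP3, DSC1 (first interval) and DSC3 (both) lost calls only with that minimum inside the test. Depth limited what could be said of genes under about 0.434 CPM, the value of 3 counts in the smallest library.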

Other observations

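Transcription factors tied to the epithelial or mesenchymal state were described as a list of 14 symbols, 9 of which were in the table. GRHL3, a grainyhead factor of epithelia, was at 0.211 to 1.02 CPM (median 0.614) on Day 8, 1.32 to 48.1 CPM (median 5.96) on Day 10 and 0.772 to 3.61 CPM (median 1.18) on Day 12. It rose by 4.53 ± 0.59 (FDR = 1.65e-07, edgeR) and fell by 3.44 ± 0.56 on the log2 scale (FDR = 3.43e-06, edgeR), and so was called in the same 2 directions as DSG3 and DSC1. GRHL2 rose after Day 10 by 1.42 ± 0.12 on the log2 scale (FDR = 1.58e-11, edgeR) and GRHL1 had -0.98 ± 0.14 and was not called. KLF4 rose by 1.89 ± 0.41 after Day 10 and KLF5 fell by 1.65 ± 0.21. SNAI1, a repressor of CDH1 in mesenchymal cells, fell by 1.59 ± 0.19 from Day 8 to Day 10 (FDR = 3.66e-08, edgeR), and OVOL2 fell by 1.13 ± 0.19. OVOL1 and ELF3 were called in neither interval.

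Among the other junction genes, PANX1, which forms channels related to those of connexins, rose after Day 10 by 3.48 ± 0.27 on the log2 scale (FDR = 1.46e-12, edgeR), from 0.772 to 3.67 CPM (median 2.45) to 8.1 to 48.5 CPM (median 24.5). The polarity gene PARD6G rose by 4.87 ± 0.39 (FDR = 2.81e-12, edgeR), from 0.196 to 0.545 CPM (median 0.336) to 1.74 to 27.4 CPM (median 8), and PARD3B by 2.83 ± 0.23 (FDR = 3.89e-12, edgeR). AMOT, an angiomotin of tight junctions, fell by 2.19 ± 0.17 and then rose by 2.07 ± 0.17, with means of 294 ± 54.1, 64.5 ± 16.5 and 269.7 ± 83.4 CPM on the 3 days (SD, n = 10). MAGI3, a scaffold of tight junctions, did the reverse, with a rise of 1.61 ± 0.22 and a fall of 2.56 ± 0.23. CGNL1, a paralog of CGN, rose by 2.21 ± 0.27 after Day 10 (FDR = 3.16e-08, edgeR).

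The keratins KRT8 and KRT18, to whose filaments desmosomes attach, were called lower after Day 10, with log2 fold changes of -1.26 ± 0.13 (FDR = 7.87e-10, edgeR) and -2.21 ± 0.19 (FDR = 2.4e-11, edgeR). KRT18 was at 12415 to 19889.9 CPM (median 16491) on Day 10 and 1849.8 to 8126 CPM (median 2639.8) on Day 12.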
